A study of Mus musculus with 24 samples.

Results

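Expression of the S100 calcium-binding family was examined in mammary glands and mammary tumors of mice. The family was taken as 10 genes, S100a1, S100a4, S100a6, S100a8, S100a9, S100a10, S100a11, S100a14, S100a16 and S100b, whose Ensembl identifiers carry these symbols in the GENCODE M1 annotation, out of 37991 genes in the count table. All 10 had a row, and 9 passed the filter on low counts that left 14918 genes for testing, while S100a9 did not. S100a8 passed that filter through its PyMT samples, since a single FVB sample reached a CPM (reads scaled to the library total) of 1, so its presence among the tested genes is itself tied to a difference.

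RNA was sequenced from 24 mice in 8 groups, 3 PyMT and 3 FVB females at each of weeks 6, 8, 10 and 12. PyMT mice were the heterozygous F1 daughters of MMTV-PyVT males and FVB females, and they carry the polyoma virus middle T antigen under a promoter active in mammary epithelium, in 1 transgenic line on the FVB background. FVB females of the same ages without the transgene were the controls, so transgene and tumor tissue cannot be told apart from each other. By the stage that the study assigned to each week, the PyMT tissue was hyperplastic at week 6 and held adenoma/MIN at week 8. It was carcinoma after that, early at week 10 and late at week 12. All samples are whole tissue, in which fewer cells of a type and less RNA per cell cannot be told apart.

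Total counts ran from 6969375 to 13516601 per sample. In 13 of the 24 libraries, 6 PyMT and 7 FVB, the counts of scarce genes piled up around a common value between 8 and 25 reads, so a count of that size may stand for few molecules and intervals based on counts are too narrow there. Among 3799 moderately expressed genes, up to 4.4% were at 0 in a library (FVB week 10 replicate 3). The marker genes of the labelled tissue were present: summed CPM of 10 luminal epithelial genes ran from 2921 to 5616 in tumors and from 382 to 2325 in control glands. For 8 adipocyte genes the sum was 4905 to 11850.4 in control glands and 111 to 1772 in tumors, and for 10 fibroblast genes it was 5209 to 22345 and 2824 to 6201.

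S100 proteins are small calcium sensors that mostly act as dimers. Binding of calcium exposes a hydrophobic surface through which they hold other proteins, such as annexins, cytoskeletal proteins and enzymes, and some members are also secreted and act on cell surface receptors. S100a8 and S100a9 form calprotectin, which is stored in large amounts by neutrophils, sequesters metal ions and is also made by stressed epithelia. S100a10 binds annexin A2 and does so without calcium, and S100a4 is known for its binding to nonmuscle myosin and its link to metastasis. In the mammary gland, family members are made by epithelial, fat, nerve, muscle and immune cells.

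Of the members, 9 lie on chromosome 3 and S100b lies on chromosome 10 at positions 75716598 to 75723904 (mm9, the build of the count table). S100a1 (90314956 to 90318314), S100a14 (90330778 to 90332755), S100a16 (90341176 to 90347073), S100a4 (90407692 to 90409967), S100a6 (90416816 to 90418336), S100a8 (90472993 to 90473956) and S100a9 (90496554 to 90499643) stood in 1 cluster. S100a11 (93324410 to 93330209) and S100a10 (93359002 to 93368565) stood side by side farther along. S100a1 and S100a9 are on the minus strand and the other 8 members on the plus strand. None of the 10 shared exon bases with another gene of the annotation. S100a11 alone had other near-identical copies in the genome, in 4 places of at least 50 bp with identity up to 98.6%. Of these, 3 were at least 400 bp long with identity of 93.3% or more, so the counts of S100a11 are uncertain.

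RefSeq gave a start site for 8 of the 10 members, all but S100a10 and S100a14, in the build GRCm38.p6. The 250 bases before the start are printed for 4 genes: S100a8, the member that was higher in PyMT, S100a9, its partner and neighbor on the chromosome, and S100a6 and S100a11, which were lower in PyMT over the 4 weeks. The sequences run 5′ to 3′ on the strand of the gene, at chr3:90668821-90669070 (plus strand), chr3:90695722-90695971 (minus strand), chr3:90612644-90612893 (plus strand) and chr3:93520246-93520495 (plus strand), in that order. Capitals mark matches to a TATA box, a C/EBP site or an AP-1 site.
S100a8: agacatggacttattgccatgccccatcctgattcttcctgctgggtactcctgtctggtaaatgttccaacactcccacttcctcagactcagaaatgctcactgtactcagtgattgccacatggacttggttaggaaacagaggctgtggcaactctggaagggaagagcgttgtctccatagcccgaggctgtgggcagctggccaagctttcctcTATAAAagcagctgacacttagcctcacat
S100a9: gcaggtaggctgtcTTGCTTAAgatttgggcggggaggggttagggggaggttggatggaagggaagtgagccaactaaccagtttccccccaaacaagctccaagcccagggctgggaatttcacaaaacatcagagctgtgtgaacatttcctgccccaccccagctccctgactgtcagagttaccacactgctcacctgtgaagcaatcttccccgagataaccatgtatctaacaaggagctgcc
S100a6: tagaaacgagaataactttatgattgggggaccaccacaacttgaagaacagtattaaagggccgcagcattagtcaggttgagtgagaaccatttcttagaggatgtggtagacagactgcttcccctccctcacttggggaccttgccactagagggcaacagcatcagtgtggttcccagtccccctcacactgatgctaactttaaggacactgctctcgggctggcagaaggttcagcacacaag
S100a11: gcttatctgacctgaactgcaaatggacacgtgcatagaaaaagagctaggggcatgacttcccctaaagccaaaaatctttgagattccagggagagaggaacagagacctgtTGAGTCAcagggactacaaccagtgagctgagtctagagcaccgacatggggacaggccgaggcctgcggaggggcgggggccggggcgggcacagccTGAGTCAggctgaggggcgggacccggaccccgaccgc

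Searched on both strands, the TATA box TATAAA began 30 bases before the start of S100a8 and 31 bases before that of S100a4, and 12.4% of 32851 RefSeq promoters of the same length hold it. The C/EBP letters TTGCNNAA, a motif of factors active in myeloid cells and mammary epithelium, lay 236 bases before the start of S100a9 (9.56% of promoters). The AP-1 letters TGANTCA lay 136 and 38 bases before the start of S100a11 and 192 bases before a second start of S100a16 (6.75% of promoters). No member held the STAT letters TTCNNNGAA (7.02% of promoters) or the ETS letters CCGGAA (12.0% of promoters) in this window, and S100a1, S100a6 and S100b held none of the 5 motifs. A match is a description of the letters and does not show that a factor bound there.

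S100a8, a subunit of calprotectin, was the member that differed most between the genotypes. Its normalized count (counts over DESeq2's size factors) was 131, 38.6 and 68.1 in the 3 PyMT samples of week 6 and 58.2, 66.6 and 115 at week 8. At week 10 it was 85.4, 106 and 58.9, and at week 12 it was 93.6, 66.2 and 54.5. Every PyMT sample held S100a8, with 37 to 196 reads each, and the group means of the 4 ages lay between 71.4 and 83.4. In FVB it was at 0 in 8 of 12 samples and was 0.881 in 1 sample of week 6, 1.26 in 1 of week 8, 18.7 in replicate 1 of week 10 and 3.28 in 1 of week 12. The lowest PyMT sample lay above the highest FVB sample, so the genotypes did not overlap at any age.

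**Figure D1:**
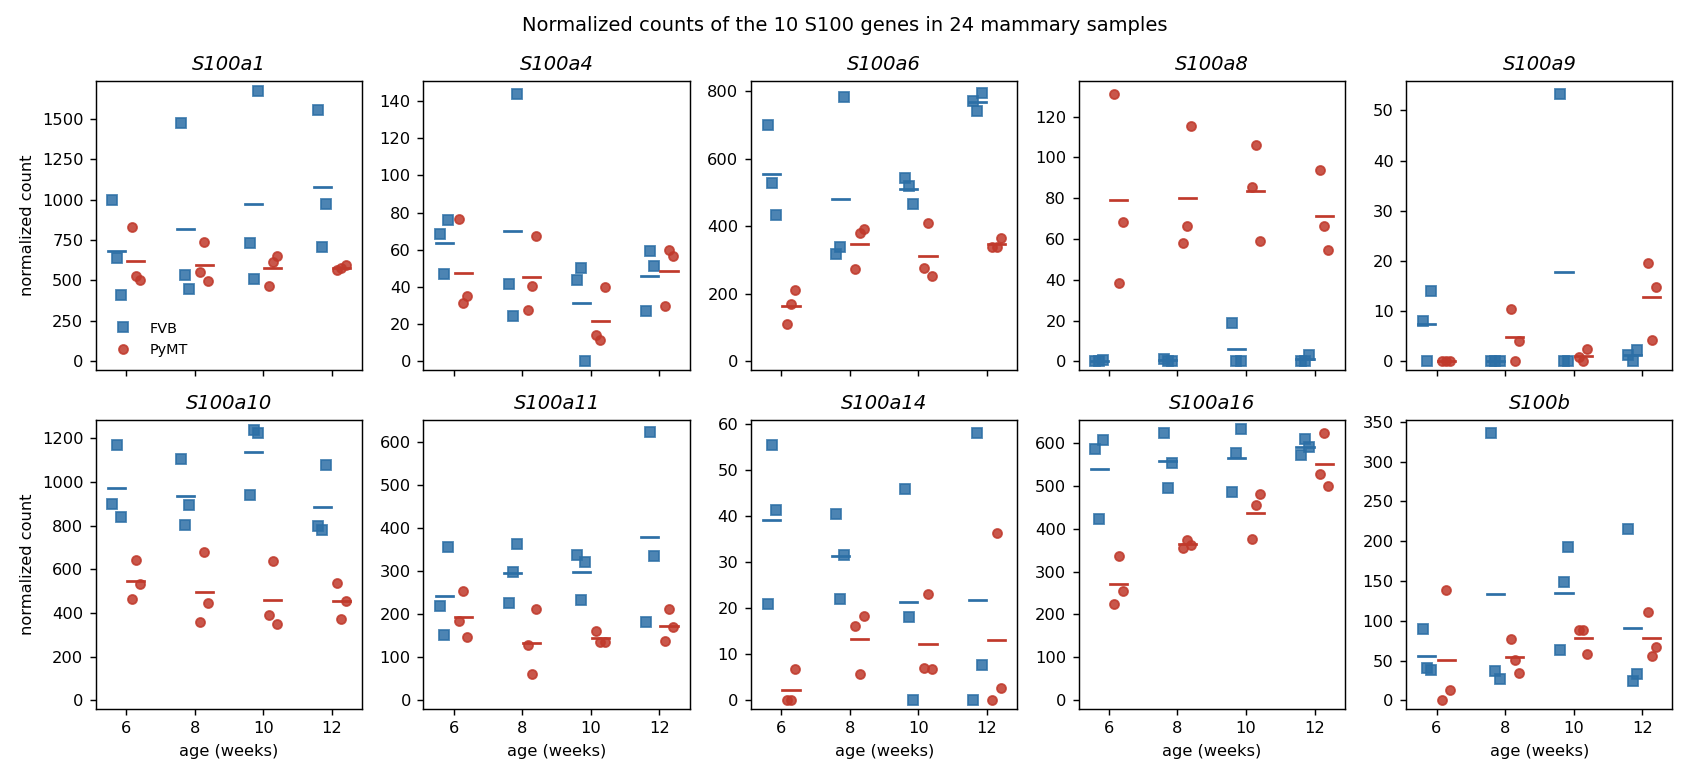
Normalized counts (y axes, linear, own scale for each gene) of the 10 S100 genes by age in weeks (x axes), with a point for each of 24 samples (blue squares FVB, red circles PyMT) and a bar at the mean of the 3 samples of a group. S100a8 lies between 38.6 and 131 in PyMT and between 0 and 18.7 in FVB, S100a10 is lower in every PyMT sample than in any FVB sample, and S100a16 in PyMT lies higher at week 12 than at week 6.

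Summed over the 12 samples of each genotype, S100a8 had 1110 reads in PyMT and 31 in FVB, which after division by the library totals gave a ratio of 36.1 (exact 95% interval 25.3 to 53.3, counting error only). By week, the ratio was 314 at week 6 (304 reads against 1, interval 55.9 to 12439), 262 at week 8 (328 against 1, 46.7 to 10387.0), 11.9 at week 10 (266 against 26, 7.97 to 18.6) and 75.1 at week 12 (212 against 3, 25.4 to 367). The 26 FVB reads of week 10 came from replicate 1 alone. In edgeR's quasi-likelihood test, adjusted over all tested genes by Benjamini-Hochberg, the log2 fold change was 7.61 ± 1.33 (SE) at week 6 (adjusted p = 0.00969). It was 7.29 ± 1.27 at the next age (adjusted p = 0.0129) and 5.80 ± 1.10 at week 12 (adjusted p = 0.00616), and averaged over the 4 weeks it was 6.08 ± 0.75 (adjusted p = 8.38e-07). It did not pass at week 10 (3.67 ± 1.61, adjusted p = 0.169). These fitted changes rest on FVB groups at or near 0 and depend on the prior count, so they are no bound on the fold. S100a8 had passed the filter on low counts through its PyMT samples, so the p-values are tied to that selection.

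Single libraries decided some of these calls. Without replicate 1 of FVB week 10 the week 10 difference passed (9.36, adjusted p = 0.0203), and the 17 alternatives for that age gave adjusted p-values of 0.0203 to 0.346. The week 8 call was lost without PyMT replicate 1 (adjusted p = 0.0514) or PyMT replicate 3 (adjusted p = 0.0697), with a range of 1.40e-06 to 0.0697 over its 17 alternatives. Over the 4 weeks S100a8 passed in all 33 alternatives, with log2 fold changes of 5.91 to 7.53. Apart from those with a weaker filter, the alternatives kept a filter that S100a8 had passed through its PyMT samples. Their agreement is therefore no independent support for the difference.

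S100a9, the other subunit of calprotectin, was scarce and did not differ in 1 direction at all ages. In PyMT it had 0 reads in each sample of week 6, then 11, 0 and 7 reads at week 8, 1, 0 and 3 at week 10, and 19, 4 and 16 at week 12. In FVB it had 7, 0 and 16 reads at week 6, 0 in each sample of week 8, 74, 0 and 0 at week 10, and 1, 0 and 2 at week 12. The counts added up to 61 reads in PyMT, with 5 of 12 samples at 0, and to 100 in FVB, with 7 of 12 at 0 and 74 of the reads in replicate 1 of week 10. S100a8 had more reads than S100a9 in 12 of 12 PyMT samples, whereas in FVB it had more in 2 samples and fewer in 4. The groups overlapped at weeks 6, 8 and 10, and at week 12 the PyMT samples (4.27 to 19.5 normalized counts) lay above the FVB samples (0 to 2.19), with 39 reads against 3 and a ratio of 13.8 (interval 4.39 to 69.9, counting error only). At week 10 the ratio was 0.0631 (0.0167 to 0.168), from 4 reads against 74, and over all samples it was 0.614 (0.439 to 0.853). Both intervals again hold counting error only and leave out the spread between mice. Both ratios rest on the 74 reads of 1 FVB library, so they show no direction between the genotypes. On the log2 scale S100a8 and S100a9 had a Pearson coefficient of -0.090 across the 12 PyMT samples and 0.728 across the 12 FVB samples, 6 of which were at 0 for both. With a filter of a CPM of at least 1 in 3 samples, under which S100a9 could be tested, its adjusted p in edgeR was 0.168 to 0.422 by week.

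Most genes of a list of 10 neutrophil genes were scarce in both genotypes. Ly6g, a surface marker of neutrophils, had no read in any of 24 samples. The granule genes Mpo, Elane, Camp, Ngp, Mmp8 and Retnlg were at 0 in 10 or 11 of 12 PyMT samples each. In FVB they were at 0 in 7 (Mpo and Elane) to 12 (Retnlg) of 12 samples. The list of 10 neutrophil genes as a whole had a summed CPM of 817 to 2979 in PyMT and 22.2 to 469 in FVB. Most of that sum came from Ltf, a granule protein that mammary epithelium also secretes into milk, with 6060 to 33541 reads per PyMT sample. The other 9 genes together had 0 to 84 reads per PyMT sample (median 42, total 485) and 0 to 218 per FVB sample (median 33, total 550). The highest value, 218, was in replicate 1 of FVB week 10, the sample that also held the most S100a9 and the most FVB S100a8, with 174 reads of Csf3r and 37 of Cxcr2. Csf3r, the receptor for granulocyte colony-stimulating factor and 1 of the 2 genes of the list that were tested, was at 0 in 2 of 12 samples of each genotype. It held 401 of the 485 PyMT reads and 378 of the 550 FVB reads of the 9 genes, so their sum is mostly that of 1 gene. Its log2 fold change over the 4 weeks was 0.11 ± 0.76 (adjusted p = 0.914), and that of Ltf was 2.94 ± 0.51 (adjusted p = 6.44e-05). Among 10 macrophage genes, 2 passed as higher in PyMT over the 4 weeks and 2 as lower, beside 23.6% and 27.4% of all tested genes. The part of neutrophils and macrophages in the S100a8 and S100a9 values was not tested.

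**Figure D2:**
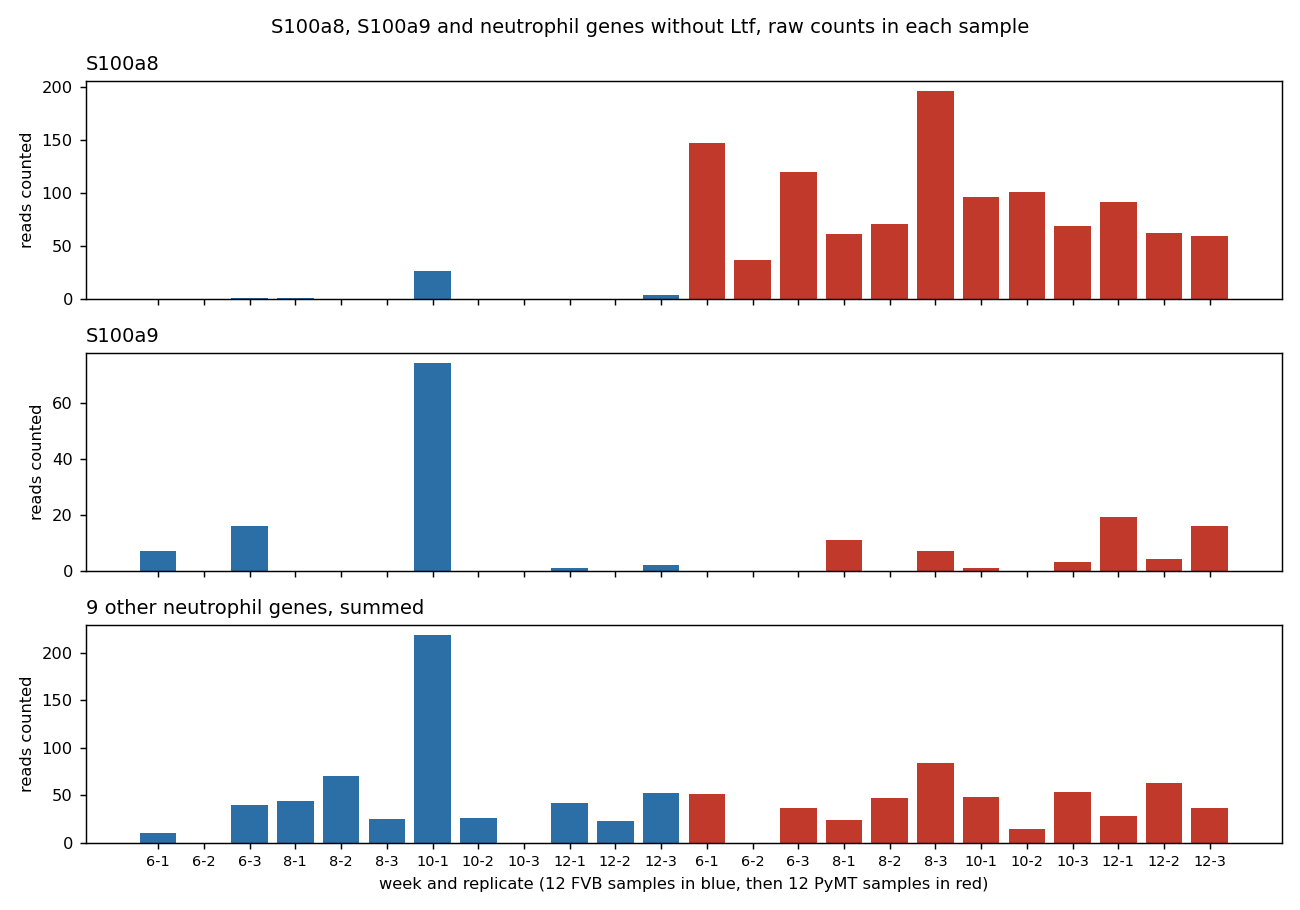
Raw read counts (y axes, linear from 0) of S100a8, of S100a9 and of 9 neutrophil genes without Ltf, summed, in each of 24 samples (x axis, week and replicate, FVB in blue and PyMT in red). S100a8 reads stand in all 12 PyMT samples (37 to 196), while S100a9 and the neutrophil genes peak in FVB week 10 replicate 1, with 74 and 218 reads.

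S100a10, the annexin A2 ligand, was lower in PyMT. The 3 tumor samples of week 6 had normalized counts of 463, 641 and 532, against 901, 1170.1 and 841 in the controls. Those of week 8 had 358, 679 and 448 against 1106, 805 and 893, those of week 10 had 392.4, 640.3 and 348 against 943, 1239 and 1227, and those of week 12 had 537, 372 and 457 against 798, 781 and 1078. All 12 PyMT samples (highest 679) lay below all 12 FVB samples (lowest 781). Over all 24 samples S100a8 and S100a10 were the 2 members whose genotypes did not overlap, beside 4.67% of tested genes that were higher without overlap and 7.22% that were lower without overlap. The log2 fold change was -0.84 ± 0.21 at week 6 (adjusted p = 0.0361), -1.26 ± 0.26 at week 10 (adjusted p = 0.0140) and -0.91 ± 0.20 in the oldest mice (adjusted p = 0.0120), all past the test, while -0.91 ± 0.26 at week 8 was not (adjusted p = 0.0642). Over the 4 weeks S100a10 fell by 0.99 on the log2 scale (SE 0.12, adjusted p = 7.07e-07), just short of the 2-fold change that a call required, and this passed in 33 of 33 alternatives. The week 6 result passed in 8 of 17 alternatives, the losses including each of 5 samples left out in turn (all but PyMT replicate 2), with adjusted p-values of 0.0109 to 0.198. The week 10 result passed in 14 of 17 (0.000499 to 0.0747), the losses being library size only (-0.94, adjusted p = 0.0747) and the omission of PyMT replicate 1 (adjusted p = 0.0685) or 3 (adjusted p = 0.0562). The week 8 result passed in 8 of 17 alternatives, among them DESeq2 (adjusted p = 0.0286), the fit of all 24 samples (adjusted p = 0.0102) and the omission of PyMT replicate 2 (-1.17, adjusted p = 0.0347), with a range of 0.00458 to 0.192.

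S100a6 (calcyclin), a member expressed in many cell types, was lower in PyMT too. At week 6 it stood at 111, 169 and 213 in the tumors and at 699, 528 and 434 in the controls, a difference of -1.76 ± 0.32 on the log2 scale (adjusted p = 0.0116) with no overlap. At week 8 the normalized counts were 273, 379 and 391.7 in PyMT and 318, 338 and 784 in FVB, so the groups overlapped (-0.45 ± 0.38, adjusted p = 0.492). The high FVB value at week 8 was that of replicate 3, without which the week 8 difference was 0.12. At week 10 the samples stood at 278, 409 and 253 in PyMT and at 544, 519 and 466 in FVB (-0.66 ± 0.25, adjusted p = 0.117). At week 12 they stood at 339, 338 and 366 in PyMT and at 771, 741 and 796 in FVB, a difference of -1.10 ± 0.15 (adjusted p = 0.00147) between groups that were each tight. Over the 4 weeks S100a6 fell by 1.002 on the log2 scale (SE 0.15, adjusted p = 1.15e-05), and its adjusted p stayed under 0.05 in all 17 alternatives at week 6, in all 17 at week 12 and in all 33 over the 4 weeks. That value lies at the 2-fold line, so its call by fold over the 4 weeks could turn on small shifts (range -0.71 to -1.07).

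S100a11, a further annexin-binding member whose counts are uncertain because of its copies, had a normalized count of 162 ± 50.2 (SD, n = 12) in PyMT and 304 ± 123 (SD, n = 12) in FVB. At week 6 the groups overlapped, at 184, 254 and 146 in PyMT and 219, 152 and 357 in FVB. Week 8 gave 129.7, 60.9 and 213 against 226, 298 and 364, and week 10 gave 162, 135 and 136 against 339, 233 and 321, with PyMT below FVB in both. At week 12 the groups overlapped again, at 139, 213 and 171 in PyMT and 183, 624 and 336 in FVB. No single week passed (log2 fold changes -0.33 to -1.10, adjusted p from 0.0640 to 0.637), and over the 4 weeks S100a11 fell by 0.88 (SE 0.22, adjusted p = 0.00176), which held in 33 of 33 alternatives. Of 17 alternatives each, 1 passed at week 8 (adjusted p from 0.0423 to 0.377), 4 at week 10 (0.0275 to 0.231), DESeq2 among them, and 2 at week 12 (0.0188 to 0.248), where the lowest was that without FVB replicate 1 (-1.41).

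S100a16, a widely expressed member with reduced calcium binding, had a difference that was large at week 6 and small at week 12. The tumors of week 6 had normalized counts of 224, 336 and 255, those of week 8 had 355, 372 and 363, those of week 10 had 375, 454 and 479, and those of week 12 had 527, 622 and 499.9. The controls had 585, 423 and 607, then 622, 495 and 554, then 485, 575 and 632, and in the oldest group 572, 609 and 589. The PyMT samples lay below the FVB samples at weeks 6, 8 and 10 and overlapped with them at week 12, while the FVB mean stayed between 538 and 589.9. The log2 fold change was -0.996 ± 0.25 in the youngest mice (adjusted p = 0.0376). It was -0.60 ± 0.20 at week 8 and -0.32 ± 0.21 at week 10, with adjusted p-values of 0.0903 and 0.366, and -0.05 ± 0.16 in the oldest mice, with 0.834. The week 6 result held in 9 of 17 alternatives and was lost without FVB replicate 1 or 3 or PyMT replicate 1 or 3 (adjusted p from 0.0967 to 0.140, and from 0.000822 to 0.149 over all 17), and with scaling by library size alone the week 12 difference was 0.26.

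The change of the S100a16 difference from week 6 to week 12 was 0.93 ± 0.26 on the log2 scale, with an unadjusted p of 0.00173 and an adjusted p of 0.812 in the fit of all 24 samples, so it did not pass. Within PyMT, week 12 stood 1.03 above week 6, and the test of all 4 weeks gave an unadjusted p of 0.000139 and an adjusted p of 0.305. DESeq2 gave an adjusted p of 0.00229 for the same question, and over 33 alternatives the adjusted p ran from 0.00229 to 0.540. Over the 4 weeks S100a16 fell by 0.50 on the log2 scale (SE 0.09, adjusted p = 9.80e-05), and with scaling by library size alone the decrease was 0.20 (adjusted p = 0.101).

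S100a1, the member known from heart and skeletal muscle, varied mainly among the FVB samples. The tumors had normalized counts of 832, 527 and 499.8 at week 6, then 553, 741 and 497, then 467, 616 and 654, and in the oldest group 563, 576 and 596. The controls had 999, 641 and 411 at week 6, then 1471, 535 and 445, then 731, 512 and 1669.8, and in the oldest group 1552, 707 and 969.9. Its spread over 12 samples was wider in FVB (SD 449 around a mean of 887) than in PyMT (SD 106 around 594), and the groups overlapped except at week 12. The difference passed at week 12 (-0.85 ± 0.27, adjusted p = 0.0478), where 9 of 17 alternatives lost it, 5 of them by leaving out a single sample, any but FVB replicate 2, and the adjusted p ran from 0.00832 to 0.168. It also passed over the 4 weeks (-0.54 ± 0.22, adjusted p = 0.0415), where 18 of 33 alternatives lost it, 13 of them by leaving out a single sample. Leaving out FVB week 8 replicate 1, the sample at 1471, gave -0.36 (adjusted p = 0.123) over the 4 weeks, and leaving out FVB week 10 replicate 3, the sample at 1669.8, gave -0.39 (adjusted p = 0.110). The adjusted p over the 33 alternatives ran from 0.0188 to 0.393.

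S100b, known from glia, Schwann cells and fat cells, had its highest values in some of the same FVB samples. The controls had normalized counts of 89.2, 40.1 and 37.9 at week 6, then 336, 37.2 and 27.1, then 63.2, 149 and 192, and in the oldest group 215, 23.9 and 32.8. The tumors had 0, 139 and 13.0 at week 6, then 77.3, 50.6 and 34.1, then 89.0, 88.0 and 58.0, and in the oldest group 111, 55.6 and 67.5. The groups overlapped at every week, and S100b did not pass at any week (adjusted p from 0.429 to 0.949) or over the 4 weeks (-0.61 ± 0.57, adjusted p = 0.389). Without PyMT week 6 replicate 2, the tumor sample at 139, the 4 weeks gave -1.30 (adjusted p = 0.0414), and the adjusted p ran from 0.0414 to 0.898 over 33 alternatives. Across the 12 FVB samples S100a1 and S100b correlated with a Pearson coefficient of 0.712, and across the 12 PyMT samples with -0.547, on the log2 scale. These are descriptions of samples that share libraries.

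Skeletal muscle genes varied strongly between samples. The summed CPM of 10 muscle genes was 46048 and 14523 in FVB week 6 replicates 1 and 2, 45036 in FVB week 10 replicate 3 and 28928 in FVB week 12 replicate 1, and 9.66 to 669.5 in the other 8 FVB samples. In PyMT it ran from 0 to 4051. Of the 4 FVB samples with much muscle RNA, 3 had S100a1 at 1669.8, 1552 and 999, and FVB week 6 replicate 2 had it at 641. FVB week 12 replicate 3 had S100a1 at 969.9 with a summed muscle CPM of 108. The FVB sample at 1471 was not among the 4 either, with a summed CPM of 62.4. That sample, FVB week 8 replicate 1, had the highest summed CPM of the 8 adipocyte genes, 11850.4. The next highest, 11454 in FVB week 10 replicate 2, stood beside an S100a1 value of 512. S100b was 89.2, 40.1, 192 and 215 in the 4 FVB samples with much muscle RNA, in the order of their sums above. It was 336 in FVB week 8 replicate 1 and 149 in FVB week 10 replicate 2, where the summed muscle CPM was 62.4 and 18.1. Of the 10 muscle genes, all 10 passed as lower in PyMT over the 4 weeks, beside 27.4% of all tested genes. The part of muscle and adipocyte RNA in the S100a1 and S100b values was not tested.

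**Figure D3:**
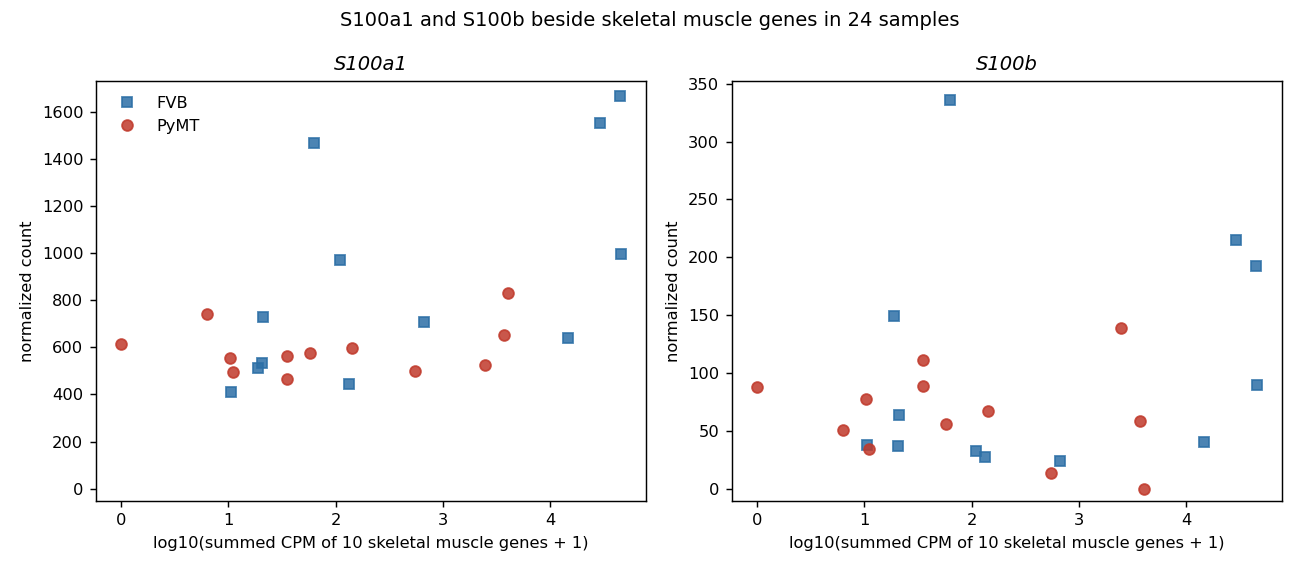
Normalized counts of S100a1 and S100b (y axes, linear) against log10 of the summed CPM of 10 skeletal muscle genes plus 1 (x axes), with a point for each of 24 samples (blue squares FVB, red circles PyMT). Of the 4 FVB samples with a summed CPM of 14523 or more, 3 have S100a1 between 999 and 1669.8, and another FVB sample with S100a1 at 1471 and S100b at 336 has a summed muscle CPM of 62.4.

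Schwann cell genes, which bear on S100b, moved in both directions over the 4 weeks. Mbp (-0.60 ± 0.19, adjusted p = 0.0103) and Prx (-1.09 ± 0.30, adjusted p = 0.00436) were lower in PyMT. Sox10 (1.83 ± 0.24), Cdh19 (3.46 ± 0.30) and Cnp (1.12 ± 0.17) were higher, with adjusted p of 1.36e-05 or less. Their part in the S100b values was not tested.

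S100a4, the member linked to metastasis and made by fibroblasts and leukocytes, did not differ detectably. Its normalized count was 11.5 to 76.6 in PyMT (40.9 ± 20.4, SD, n = 12) and 0 to 144 in FVB (52.7 ± 35.1, SD, n = 12). Weeks 10 and 12 gave opposite point values, -0.46 ± 1.53 and 0.14 ± 0.58 on the log2 scale, and the value over the 4 weeks was -0.35 ± 0.47 (adjusted p = 0.564). The lowest FVB value, 0, was in FVB week 10 replicate 3, the library with the most genes at 0.

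S100a14, an epithelial member, was near the limit of detection. The tumors had normalized counts of 0, 0 and 6.81 at week 6, then 16.2, 5.63 and 18.2, then 7.12, 23.1 and 6.82, and in the oldest group 0, 36.3 and 2.77. The controls had 20.9, 55.5 and 41.4 at week 6, then 40.4, 22.1 and 31.6, then 46.0, 18.0 and 0, and in the oldest group 0, 58.0 and 7.65. PyMT samples lay below FVB samples at weeks 6 and 8, and the groups overlapped later. No week passed (at week 6 -3.93 ± 1.65, adjusted p = 0.173), nor did the 4 weeks together (-1.66 ± 0.83, adjusted p = 0.103), and 3 of 33 alternatives gave an adjusted p below 0.05, among them those without PyMT week 6 replicate 3 (-2.75, adjusted p = 0.0223) or PyMT week 12 replicate 2 (-2.43, adjusted p = 0.0257), with a range from 0.0223 to 0.313. Luminal epithelial genes moved the other way, with 9 of 10 passing as higher in PyMT over the 4 weeks, beside 23.6% of all tested genes. Their part in the S100a14 values was not tested.

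Counted over the family with the rule of an adjusted p under 0.05 and a change above 2-fold, S100a8 was called higher and S100a6 lower at week 6, where 3.58% of all tested genes were called higher and 6.46% lower (10.0% in all). Week 8 gave S100a8 alone, beside 3.57% of genes higher and 6.37% lower (9.95% in all), and week 10 gave S100a10 alone, lower, beside 4.83% and 9.09% (13.9% in all). At week 12 S100a8 was higher and S100a6 lower, beside 7.75% and 13.0% (20.7% in all), and over the 4 weeks the same pair was called, beside 8.70% and 17.5% (26.2% in all). With 9 tested members, counts of 1 or 2 are of the order of the background, and S100a8 had entered the tested genes through PyMT.

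By adjusted p alone, week 6 gave 1 member higher and 3 lower (S100a6, S100a10 and S100a16), beside 4.82% of tested genes higher and 7.06% lower (11.9% in all). Week 8 gave 1 higher and none lower, beside 4.34% and 6.86% (11.2%), and week 10 none higher and 1 lower, beside 6.27% and 9.91% (16.2%). Week 12 gave 1 higher and 3 lower (S100a1, S100a6 and S100a10), beside 12.5% and 15.3% (27.8%). The average of the 4 weeks gave 1 higher and 5 lower (S100a1, S100a6, S100a10, S100a11 and S100a16), beside 23.6% and 27.4% (51.0%). Of all 10 members, those whose 3 tumor samples lay below the 3 control samples numbered 4 in each of weeks 6, 8 and 10 and 3 in the oldest mice, beside 20.4%, 21.7%, 21.6% and 25.2% of tested genes. Those that lay above numbered 1, 1, 1 and 2 (S100a8, joined by S100a9 at week 12), beside 16.2%, 18.4%, 18.9% and 21.5%.

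The median log2 fold change of the 9 tested members was -0.42 at week 6, -0.60 at week 8, -0.69 at week 10, -0.70 at week 12 and -0.61 over the 4 weeks, while the median of all tested genes lay between -0.08 and 0.0070. At each of weeks 6, 8 and 10, 8 of the 9 had a point value below 0, the exception being S100a8, and at week 12 it was 7. Of all 14918 tested genes, 8005, 7722, 7397 and 7465 had a point value below 0 at weeks 6, 8, 10 and 12. Scaling by library size alone shifted the median of all genes over the 4 weeks to 0.26 and the members with it, to -0.71 for S100a6, -0.69 for S100a10 and -0.62 for S100a11 over the 4 weeks, all past the test. Adipocyte genes (8 of 8), fibroblast genes (10 of 10) and endothelial genes (10 of 10) passed as lower in PyMT over the 4 weeks. So did 6 of 10 basal epithelial genes, beside 27.4% of all tested genes. The part of these marker genes' cell types in the lower S100 values was not tested.

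**Figure D4:**
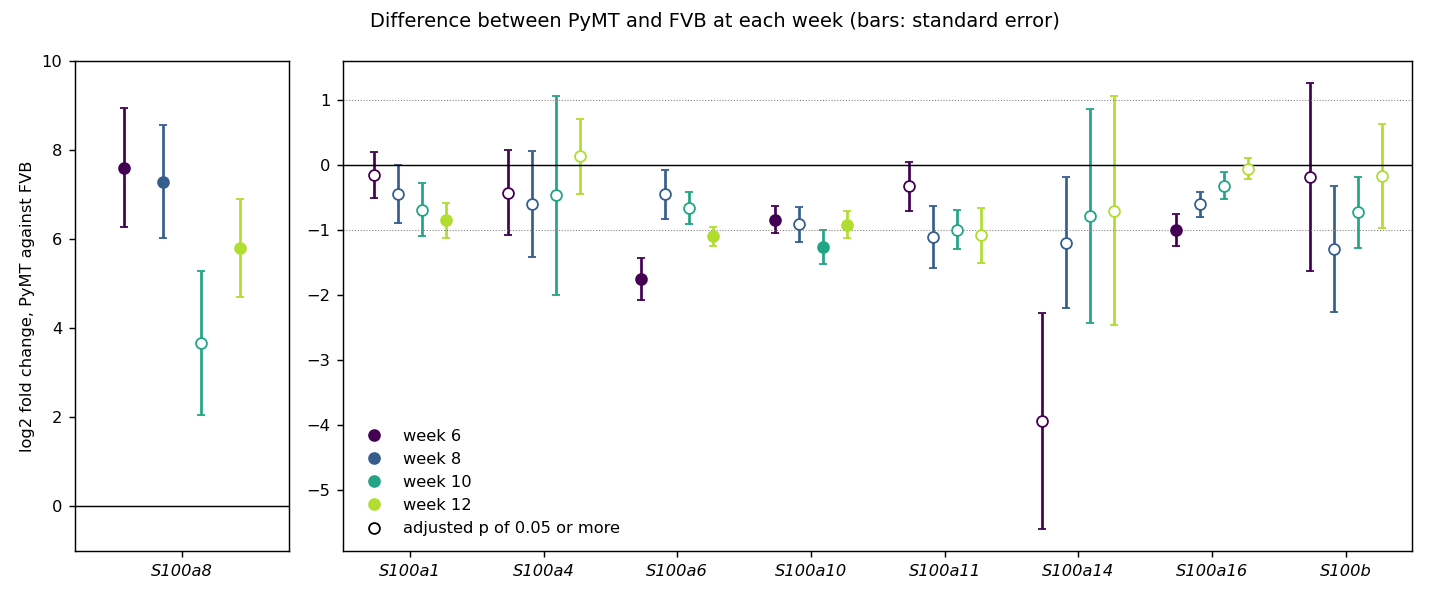
Log2 fold change of PyMT against FVB (y axes, own scale for S100a8) for the 9 tested S100 genes at weeks 6, 8, 10 and 12 (colors, left to right within a gene), with bars of 1 standard error. Filled points have an adjusted p under 0.05 and dotted lines mark a 2-fold change. S100a8 lies at 3.67 or higher at every week, and S100a16 moves from -0.996 at week 6 to -0.05 at week 12.

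No member's difference changed between weeks by adjusted p in edgeR. From week 8 to week 10 the smallest unadjusted p of a member was that of S100a8 (0.0682), beside 533 of 14918 genes with an unadjusted p under 0.05 and 1 gene (0.00670%) past the adjusted threshold. From week 6 to week 12 it was that of S100a16, beside 691 genes at an unadjusted p under 0.05 and 0 (0.00%) past the adjusted threshold. Within PyMT, S100a16 and S100a6 (unadjusted p = 0.00725, adjusted p = 0.762) had an unadjusted p under 0.05, as did 597 genes, and 0 genes (0.00%) passed. S100a6 in PyMT stood 1.08 higher at week 12 than at week 6. Within FVB, S100a8 had an unadjusted p of 0.0270, resting on the reads of replicate 1 of week 10, and 1 gene (0.00670%) passed.

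Per kilobase of exon, S100a1 was the most abundant member in both genotypes, at an RPKM of 101 ± 17.4 (SD, n = 12) in PyMT and 148 ± 74.1 (SD, n = 12) in FVB. In PyMT it was followed by S100a6 (48.0 ± 15.2), S100a10 (47.3 ± 10.5), S100a11 (37.4 ± 11.6), S100a16 (29.5 ± 8.48) and S100a8 (23.6 ± 8.40). S100a4 (8.22 ± 4.16), S100b (5.15 ± 3.06), S100a14 (1.12 ± 1.22) and S100a9 (1.07 ± 1.49) were lower. The lowest S100a1 sample lay above the highest S100a6 sample, and every other pair of neighbors in this order had overlapping samples. In FVB the order was S100a1, S100a10 (94.1 ± 16.0), S100a6 (93.5 ± 28.2), S100a11 (69.0 ± 27.6), S100a16 (40.4 ± 4.31), S100a4 (10.5 ± 6.94), S100b (8.11 ± 7.74), S100a14 (3.06 ± 2.17), S100a9 (1.48 ± 3.43) and S100a8 (0.598 ± 1.59). There S100a16 and S100a4 were the only neighbors whose samples did not overlap. S100a8 thus stood at rank 10 of 10 in FVB and at rank 6 in PyMT. Summed over the family, the members made up 231 to 329 CPM in PyMT and 296 to 413 CPM in FVB, with overlap.

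**Figure D5:**
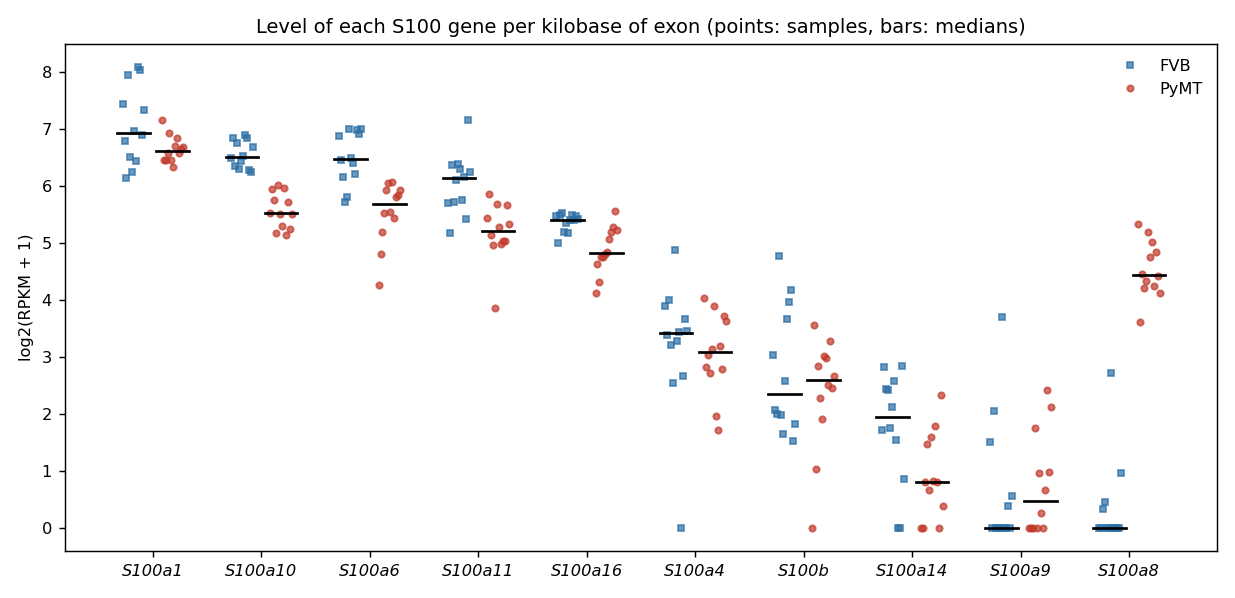
Level of each S100 gene per kilobase of exon, as log2(RPKM + 1) (y axis), in 12 FVB (blue squares) and 12 PyMT (red circles) samples, ordered by the FVB mean (x axis), with a bar at the median. S100a1 is highest in both genotypes, and S100a8 moves from rank 10 in FVB to rank 6 in PyMT.

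Of 6 further S100 genes of the annotation, S100a13 was the only one tested. It neighbors S100a1 on the opposite strand, had a normalized count of 155 ± 41.4 (SD, n = 12) in PyMT and 272 ± 70.6 (SD, n = 12) in FVB, and fell by 0.80 on the log2 scale over the 4 weeks (SE 0.16, adjusted p = 0.000230), with no single week passing. S100a5 and S100z had no read in any of 24 samples. S100a3 was at 0 in 17 samples, S100g, a calcium carrier of absorbing epithelia, in 16, and S100a7a in 12, with at most 26, 33 and 44 reads in a sample.

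The proteins that S100 members bind or signal through were followed in a list of 20 genes, all of which were tested. With both thresholds, 4 were called lower in PyMT in the youngest and in the oldest mice, 2 at week 8 and 3 at week 10, and none was called higher. Of all tested genes, 6.46% were called lower at week 6, 6.37% at week 8, 9.09% at week 10 and 13.0% in the oldest mice, and 3.57% to 7.75% were called higher. Cd36, a fatty acid transporter that takes up fatty acids carried by calprotectin, and Ahnak, a large scaffold held by S100a10 and annexin A2, were lower at all 4 weeks. Cd36 averaged 1478 ± 876 (SD, n = 12) in PyMT and 17691 ± 5505 (SD, n = 12) in FVB, with a log2 fold change of -3.63 ± 0.26 over the 4 weeks. Ahnak averaged 15519 ± 1827 (SD, n = 12) and 45337 ± 8890 (SD, n = 12), with -1.52 ± 0.11. Both had an adjusted p below that of any member (3.12e-10 and 2.67e-10). In neither did a PyMT sample reach the lowest FVB sample, as in 7.22% of all tested genes.

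Dysf, a membrane repair protein, was called lower at 3 weeks (-1.18 ± 0.17 over the 4 weeks, adjusted p = 5.76e-06), and Tgm2, a crosslinking enzyme that acts on S100 proteins, at 2 weeks (-1.22 ± 0.15, adjusted p = 1.02e-06). By adjusted p alone over the 4 weeks, 2 of the 20 partners passed as higher and 7 as lower. Of all tested genes, 23.6% passed as higher and 27.4% as lower, so the partners were near the background. Another 5 partners are named after their values were seen. Annexin A2 itself, Anxa2, fell by 0.35 over the 4 weeks (SE 0.11, adjusted p = 0.0111), and Anxa11, a partner of S100a6, fell by 1.03 (SE 0.24, adjusted p = 0.00135). Cacybp, the calcyclin-binding protein, was higher in PyMT by 0.60 (SE 0.11, adjusted p = 0.000111), and Tlr4, a receptor for calprotectin, by 0.61 (SE 0.15, adjusted p = 0.00185). Ager, the other main receptor, did not pass (-0.30 ± 0.89, adjusted p = 0.805). Cd36 is also an adipocyte gene, and the part of the 8 adipocyte markers, whose sums are given above, in the Cd36 values was not tested.

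The genes most like each member were found by Pearson correlation of log2(normalized count + 1) over 24 samples among the 10388 tested genes whose normalized count averaged 100 or more. For S100a8 they were Cldn2 (0.949), Serp1 (0.945) and 1600029D21Rik (0.940), whose coefficients were -0.495, -0.032 and -0.132 within the 12 PyMT samples and 0.635, 0.650 and 0.257 within the 12 FVB samples, where S100a8 was at 0 in 8. For S100a10 they were Syne2 (0.945), Sipa1l1 (0.935) and Chst11 (0.934), with 0.868, 0.731 and 0.844 within PyMT and 0.687, 0.691 and 0.368 within FVB. For S100a6 they were Prss23 (0.889), Sema4a (0.871) and Lass4 (0.860), with 0.881, 0.822 and 0.843 within PyMT and 0.558, 0.642 and 0.505 within FVB.

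The nearest genes of S100a11 were Tspan9 (0.847), Fkbp1a (0.837) and Thsd1 (0.828), and those of S100a16 were Smoc1 (0.847), Zbtb4 (0.837) and 5430416O09Rik (0.833). S100a1 was most like Mdh1 (0.867), Ndufa12 (0.866) and Bag1 (0.865), and the coefficients were 0.951, 0.904 and 0.954 within FVB but 0.132, 0.510 and 0.081 within PyMT. S100a4 was most like Snapc1 (0.859), Fam195b (0.840) and Gpr160 (0.839), S100a14 like Pvrl1 (0.814), E130308A19Rik (0.765) and Crtc1 (0.763), and S100b like Thnsl2 (0.782), Zdhhc2 (0.740) and Gm15920 (0.740). Between members, S100a6 and S100a16 had a coefficient of 0.742 over 24 samples, 0.719 within PyMT and 0.074 within FVB. S100a8 and S100a10 had -0.820 over 24 samples, 0.0046 within PyMT and 0.056 within FVB. These coefficients share libraries and genotype and are descriptions.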

How the data were processed

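Total RNA of 24 mammary samples was depleted of ribosomal RNA and sequenced as directional libraries. The authors trimmed adapters, aligned to mm9 using GSNAP, tallied reads by Ensembl gene using HTSeq (both tools also stand in the submitters' processing notes) and deposited raw counts, without normalization. The strand setting of the counting is not given in the sources used here. All columns belonged to a sample (0 unused). Groups came from the labels, with 3 mice each. No source says that replicate numbers pair mice. The study's analysis names litter as a covariate, but the labels do not give it per mouse, so mice that shared a litter could not be modelled and were treated as independent.

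Tools were edgeR 4.0.16, limma 3.58.1 and DESeq2 1.42.0 under R 4.3.3, BLAST+ 2.17.0 for copies in mm9, and NumPy 2.4.6, SciPy 1.17.1, pandas 2.3.3 and matplotlib 3.10.9 under Python 3.11.15. A gene was tested if its CPM reached 1 in 12 or more samples. The test was edgeR's quasi-likelihood test after TMM scaling, adjusted by Benjamini-Hochberg over 14918 genes, each week on its own 6 samples. The average over the 4 weeks, changes between weeks and differences among weeks used all 24 samples in 8 groups. Calls required an adjusted p under 0.05, and for genotype differences a change above 2-fold. SE is the log2 fold change over the square root of F. RPKM used union exon lengths. Ratios of S100a8 and S100a9 reads have exact 95% intervals, of counting error only. The fits were tested on simulated data.

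Members and lists were chosen with earlier results of these data known. Some genes of the Schwann cell list are not reported here. Named were all members, the other S100 genes, partners called at 2 weeks or more, and for each tested member the 3 genes with the highest correlation. Replicates of a group differed by a chi-square per gene of 19.7 to 246 in 24 pairs, so none was a copy. Alternatives were RLE factors, library size only, 2 weaker filters, DESeq2, limma voom with sample weights, a replicate block, a fit of all 24 samples, edgeR's exact test and each sample left out. Division by the size of read packets and leaving out the 2 libraries with most genes at 0 were chosen after seeing the data.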

Additional observations from a re-analysis of the deposited data

How the results depend on the processing

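Of the counts of called members, 207 values under the alternatives stayed within 1.5 times the reported count and 26 did not. At week 8 (reported 1) limma voom with sample weights gave 3 and leaving out the 2 libraries with most genes at 0 gave 2. At week 10 (reported 1) library size only gave 0, and DESeq2, the fit of all 24 samples and division by packet size gave 2. At week 12 (reported 2) library size only gave 1. Over the 4 weeks (reported 2) library size only, no filter and a CPM of at least 1 in 3 samples gave 1, and limma voom gave 4. For differences among weeks in PyMT (reported 0) DESeq2 gave 1, S100a16. Leaving out 1 sample gave 2 to 3 at week 6, 0 to 2 at week 8 and at week 10, 2 to 4 at week 12 and 1 to 3 over the 4 weeks. The cause was not tested.

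Log2 fold changes turned sign in 33 single values, of results that had not passed the test, and kept their sign in 994, 29 and 51 values that kept, gained or lost the call. Library size only gave 0.18 for S100a1 and 0.18 for S100b at week 6, and 0.26 for S100a16 and 0.27 for S100b at week 12. Limma voom gave 0.16 for S100a1 at week 6, 0.061 for S100a1 and 0.44 for S100b at week 8, and 0.27 for S100a14 and 0.46 for S100b at week 12. Division by packet size gave 0.67 for S100a14 at week 12. With 1 sample left out, S100a1 ran from -0.37 to 0.25, S100a11 from -0.57 to 0.12 and S100b from -2.95 to 0.47 at week 6. At week 8, S100a1 ran from -0.71 to 0.31, S100a4 from -1.05 to 0.50, S100a6 from -0.67 to 0.12 and S100b from -1.75 to 0.78. At week 10, S100a4 ran from -1.26 to 0.022 and S100a14 from -1.56 to 0.44. At week 12, S100a4 ran from -0.13 to 0.40, S100a14 from -3.77 to 1.71, S100a16 from -0.15 to 0.0010 and S100b from -0.67 to 1.497. The change of S100a8 ran from -3.55 to 1.69 between weeks 6 and 12 and from -5.78 to 2.15 between weeks 8 and 10, turning without the FVB library that held its reads.

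Same-numbered PyMT and FVB samples correlated at -0.025 to 0.177 in their deviations, over 0.1 in 4 of 12 pairs. Differently numbered samples of the same week correlated at -0.133 to 0.091. Whether samples of the same number share an origin was not tested. As no source says that the numbers pair mice, the main tests used no block. A replicate block gave 2, 1, 1, 2 and 3 called members for weeks 6, 8, 10 and 12 and the 4 weeks together, and 0 for the changes. Under the block S100a14 at week 10 was 0.32 and S100b at week 12 was 0.46. Adjusted p under the block was 0.0527 for S100a10 and 0.0940 for S100a16 at week 6, and 0.0708 for S100a1 at week 12 and 0.0594 over the 4 weeks. Depth limits S100a9, S100a14 and FVB S100a8, whose values rest on few reads or packets of reads, and 3 mice per group limit the tests of change between weeks.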
